A study of Mus musculus with 4 samples.

Results

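The genes described here encode potassium channels, their accessory subunits and the hyperpolarization-activated HCN channels, in a list of RNA editing sites from mouse cortex. They were chosen by symbol alone: every listed gene whose symbol begins with Kcn or Hcn followed by a letter or digit. The antisense transcript Kcnq1ot1, which encodes no channel and held 21 sites, was left out. The rule found 285 sites in 31 genes, of 28412 sites under 4206 symbols in the whole list, and the mouse annotation holds 98 protein-coding genes of this kind. The list was made by scDART-seq, a single-cell method that fuses the cytidine deaminase APOBEC1 to the YTH domain, which binds the RNA modification N6-methyladenosine (m6A). The fusion is meant to turn cytosines beside m6A into uracil, and each listed site is a C-to-U edit. The cells came from mice that were 6 to 8 weeks of age when a course of tamoxifen began (5 days, 20 mg/kg at intervals of 24 h), and cortex was taken 7 days after its end and dissociated with papain. The 4 samples were sublibraries of 1 pool that mixed the genotypes APOBEC1-YTH and APOBEC1-YTHmut, the latter with its YTH domain mutated, and each sublibrary pooled replicates 1 and 2. The series text also describes neuronal nuclei sorted by NeuN, a neuronal marker, and the list does not say which material its sites come from. It was taken here as the list of the single-cell pool, so whether a site reflects neurons alone or other cortical cells cannot be told apart. Both genotypes had received tamoxifen, and the sources used here do not name the promoter that drives the fusion.

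Sites are not assigned to a sample, a genotype or a cell type, so no value below has a replicate, no comparison between the fusions or between cell types could be made, and the depth of reads is unknown. Each site carries 1 whole number, called the site count here. The sources used here do not say what it counts, and its lowest value in the list is 3. Shares are given with exact (Clopper-Pearson) 95% binomial intervals, which cover counting error only, and sites of 1 gene are not independent of each other. A gene without a site may be unmethylated, unexpressed or too thinly read, and these cannot be told apart in this list. The pool also held cells whose fusion has a mutated YTH domain, so whether a given listed site marks m6A cannot be told either.

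Potassium channels let potassium leave neurons and so set the resting potential, end the action potential and space out firing. Voltage-gated, calcium-activated, inwardly rectifying and tandem pore families differ in what opens them, while HCN channels pass a mixed cation current on hyperpolarization. m6A is laid down in the core motif DRACH (A, G or T, then A or G, then A, C, and A, C or T), in many mRNAs near the stop codon and in the 3' untranslated region (3' UTR). The editing enzyme acts on the C of that motif. RAC below is the 3-letter core of this motif: A or G, then A, then the edited C.

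The transcript sequence around the highest-count site of several genes is printed first, together with the second Kcnd2 site, because the results below return to these places. Sequences are on the transcript strand, 5' to 3', from the GENCODE M21 transcripts (build mm10). The 5 capitals are the motif position, with the edited C as the 4th capital. All lie in a 3' UTR except that of Kcnc1, which lies in the coding sequence (CDS).
Kcnj9, count 100, chr1:172321685-172321705, minus strand: gggacggAAACCaaaaaaaaa
Kcnd2, count 76, chr6:21727643-21727663, plus strand: acaaataAAACAaatctttgg
Kcnd2, count 74, chr6:21727634-21727654, plus strand: tttaataAAACAaataaaaca
Kcnh5, count 49, chr12:74897276-74897296, minus strand: atgcagtTGACTgcatgcaca
Kcnq3, count 27, chr15:65990514-65990534, minus strand: gactctgTAACAtccaataat
Kcnc1, count 16, chr7:46428119-46428139, plus strand: taagcagAAACTaccaaagaa
Kcnip3, count 13, chr2:127457406-127457426, minus strand: cttgaacAGACTcatcccgac
Kcnh1, count 10, chr1:192506923-192506943, plus strand: tctccctCGACTgaccttttt

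Of the 98 annotated channel genes, 31 carried a site (31.6%, interval 22.6 to 41.8%), where 17.6% of all 21951 protein-coding genes did. At least 10 sites were listed for 11 channel genes (11.2%), against 3.13% of all protein-coding genes. Both shares for the channel genes lay above those backgrounds. Sodium channel genes (Scn) had a site in 7 of 14 genes and calcium channel genes (Cacn) in 13 of 26, so the channel families compared here were all above the genome-wide share. Among genes with a site, the median was 5 sites for potassium and HCN genes, 6 for Scn, 7 for Cacn and 2 for all other protein-coding genes. Gene expression and length were not matched in these comparisons, and the 3' UTR of the longest coding transcript had a median of 2749 nt in channel genes with a site and 1212 nt in those without.

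The sites were unevenly shared among the 31 genes. The 11 genes with 10 or more sites held 214 of the 285, or 75.1%, with 33 in Kcnma1 and 30 in Kcnq3, and 5 genes had a single site. The length of the 3' UTR did little to order the genes with a site: Spearman's rho between length and number of sites was 0.15 over the 31 genes and 0.47 over all 98, as a description across genes. Kcnb2 has an annotated 3' UTR of 12121 nt and 1 site in it, while Kcna1 had 19 sites in 1471 nt.

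**Figure D1:**
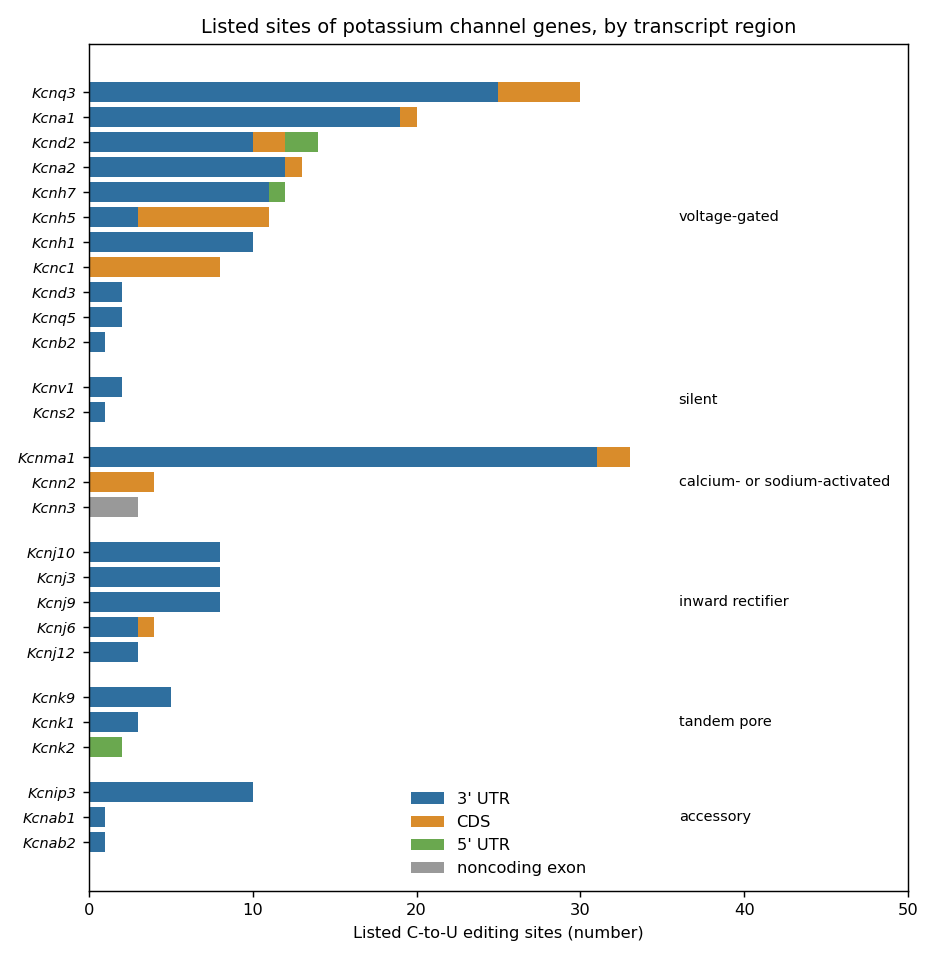
Number of listed C-to-U editing sites (x axis) of the channel genes described by name (y axis, grouped by role), with bar colours for the transcript region. Kcnma1 has 33 sites, 31 of them in the 3' UTR of at least 1 transcript and 29 in that of its longest coding transcript. The 8 sites of Kcnc1 all lie in the CDS.

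By role, 14 of 30 voltage-gated channel genes held 188 of the sites. The 8 calcium- or sodium-activated channel genes held 40 sites in 3 genes, and the 15 inward rectifier genes 31 sites in 5 genes. The 14 tandem pore genes held 10 sites in 3 genes, and the 16 accessory subunit genes 12 sites in 3 genes. The 10 silent subunits, which form no channel alone but modify others, held 3 sites in 2 genes. Per kb of exon of the genes with a site, the voltage-gated genes had 1.35 sites, the inward rectifiers 1.23 and the tandem pore genes 0.513.

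The Kcna genes encode Kv1 channels of axons and their terminals. Kcna1 (Kv1.1) had 20 sites and Kcna2 (Kv1.2) 13, and the other 6 Kcna genes had none. In Kcna1, 12 sites lay 33 to 245 nt after the stop codon, with the 2 highest counts of 17 each at 215 and 234 nt. A further 7 sites fell 1389 to 1471 nt after the stop codon, at the annotated end of the transcript, with counts of 4, 6, 12, 3, 9, 4 and 4. Its single CDS site, 867 nt before the stop codon, had a count of 4. Kcna1 therefore had sites at both ends of its short 3' UTR and none in the middle of it. One of the Kcna1 sites with a count of 17 is shown because the edited C stands in a tandem of CAAC words.
Kcna1, count 17, chr6:126641624-126641644, minus strand: gacccaaCAACCaactatttt

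Kcna2 has a far longer 3' UTR, 9401 nt, and its sites also fell into separate groups. Counts were 5, 3, 16, 8, 3 and 5 at 135 to 291 nt after the stop codon, and 7, 3, 36 and 3 at 3216 to 3243 nt. A pair near the end of the transcript had counts of 4 and 6, and 1 CDS site had a count of 3. The highest count thus lay in a group far from the stop codon. Kcnb2, which encodes the delayed rectifier Kv2.2, had 1 site, with a count of 4 at 7467 nt after the stop codon.

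Kcnd2 encodes Kv4.2, the A-type channel of dendrites. It had 14 sites, and 10 of them lay in a stretch 216 to 366 nt after the stop codon. Counts there were 3, 3, 4, 3, 74, 76, 3, 28, 3 and 11 in order along the transcript, so the 3 highest counts lay within the stretch from 302 to 323 nt, at 302, 311 and 323 nt, with a site of count 3 between the last 2 of them. Kcnd2 also had 2 sites in the 5' UTR, with counts of 5 and 6, and 2 in the CDS at 4 each. Kcnd3 (Kv4.3) had 2 sites with counts of 5 and 3, and Kcnd1 had none. The calcium sensor Kcnip3, an accessory subunit of Kv4 channels that is also known as a transcriptional repressor, was the sole Kcnip gene with sites. Its 10 sites all lay in the 3' UTR, 5 of them at 62 to 172 nt after the stop codon with counts of 3 to 6, and the 2 highest, 13 and 11, at 925 and 921 nt.

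Kcnc1 encodes Kv3.1, a channel of fast-spiking neurons, and its sites lay in another region. It had 8 sites, all in the CDS between 387 and 182 nt before the stop codon, with counts of 3, 7, 5, 4, 3, 3, 3 and 16. The highest count was the one nearest to the stop codon, in the window printed above. None of the sites lay in the Kcnc1 3' UTR of 5043 nt.

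Kcna1 and Kcna2 are close relatives with a CDS site each. When their coding sequences were aligned (74.5% identical), the 2 sites were 812 nt apart, so they did not share a position. Reads that fit both genes could be assigned to either, and the sources used here do not say how such reads were treated.

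The Kcnh genes encode the ether-a-go-go family. Kcnh7 (Erg3) had 12 sites, Kcnh5 (Eag2) 11 and Kcnh1 (Eag1) 10, and the other 5 genes none. The 3 genes differed in where their sites lay. All 10 Kcnh1 sites were in the 3' UTR with counts of 3, 5 or 10, whereas 8 of 11 Kcnh5 sites were in the CDS with counts of 3 to 9. The 3 Kcnh5 sites in its annotated 3' UTR of 287 nt had counts of 3, 14 and 49, the last at 221 nt after the stop codon. Kcnh7 had 11 sites scattered over a 3' UTR of 9532 nt, from 484 to 9188 nt after the stop codon, with counts of 3 to 9, and 1 site of count 5 in the 5' UTR. Of the Kcnh7 sites, 2 lie in exons of Gca on the opposite strand, and the sources used here do not say whether reads were assigned by strand.

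Kcnq3 encodes a subunit of the M channel, the slow potassium current that muscarinic receptors close, and had 30 sites. A run of 6 sites crossed the stop codon, from 106 nt before it to 38 nt after it, with counts of 3, 7, 3, 10, 5 and 3. The highest counts, 27 and 11, lay at 4647 and 4684 nt after the stop codon, and 15 of the sites fell between 4647 and 5768 nt. Kcnq3 therefore had its highest count far from the stop codon. Kcnq5, a further M channel subunit, had 2 sites with a count of 4 each, and Kcnq1 had none.

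**Figure D2:**
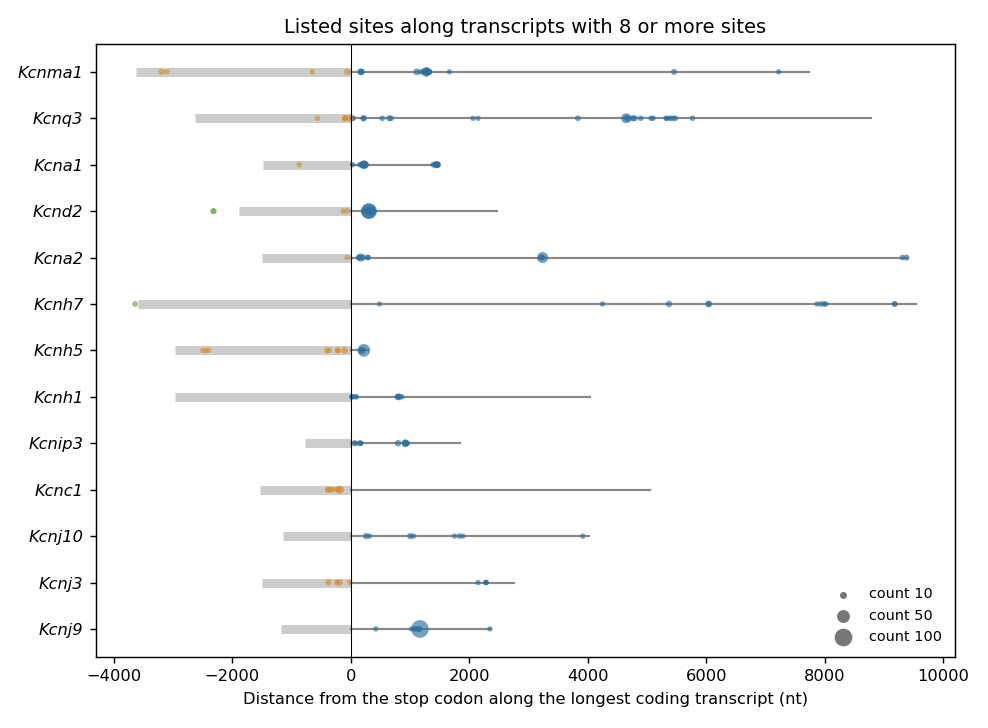
Position of each site relative to the stop codon in nt (x axis) along the longest coding transcript of the genes described by name that have 8 or more sites on it (y axis). Grey bars are the CDS, thin lines the 3' UTR, point area grows with the site count, and colours mark 3' UTR (blue), CDS (orange) and 5' UTR (green) of that transcript. The largest point drawn is that of Kcnj9, 1168 nt after the stop codon, and Kcnc1 has all 8 points inside the CDS.

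Kcnma1 encodes the pore of the BK channel, which opens on calcium and voltage together. It had 33 sites, with counts of 3 to 26 and a median of 4, and 22 of them lay within 218 nt, from 1113 to 1330 nt after the stop codon. Part of this stretch is a tandem repeat of 4 nt, AACC or AACT, that runs for 44 nt (1270 to 1313 nt after the stop codon). The repeat held 16 sites, or 16 of its 21 cytosines. Of these, 9 were in RAC, with counts of 26, 9, 9, 13, 11, 7, 4, 3 and 3, and the 7 outside RAC were all at 3. In the repeat, the second C of a unit directly follows the first, and 6 of the 7 sites outside RAC were next to a RAC site. The start of the repeat is printed with every listed C in capitals, so that the order of the sites can be seen.
Kcnma1 repeat, chr14:23298724-23298751, minus strand: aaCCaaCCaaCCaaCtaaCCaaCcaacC
The sources used here do not say how reads were placed in this repeat, and its part in these values was not tested. Kcnma1 also had 4 sites at 167 to 191 nt after the stop codon, with counts of 9, 6, 5 and 3. The small-conductance channel Kcnn2 had 4 sites, all in the CDS, with counts of 3, 3, 3 and 5. Kcnn3, of the same family, had 3 sites in exons of noncoding transcripts, with counts of 12, 4 and 3. Neither gene had a site in an annotated 3' UTR, which in the longest coding transcript of Kcnn3 is 380 nt. Kcnn1, Kcnn4, Kcnt1, Kcnt2 and Kcnu1 had no site. The 4 Kcnmb genes, which encode BK beta subunits, had none either.

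**Figure D3:**
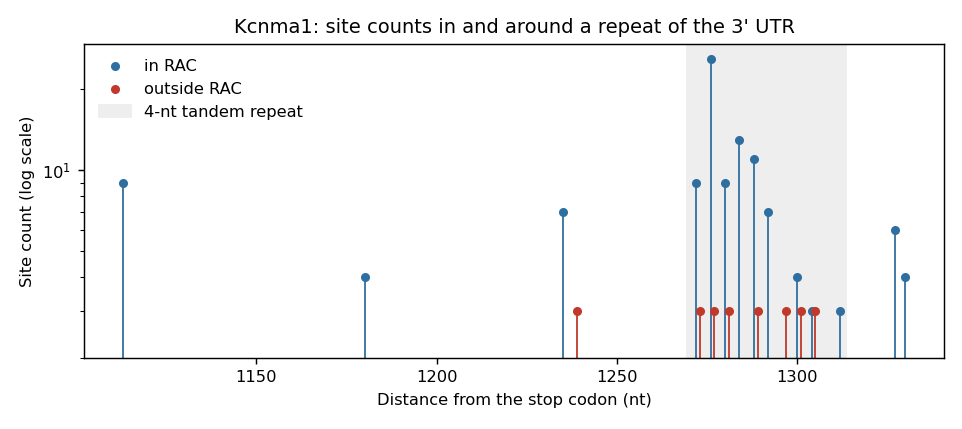
Site count (y axis, log scale) of each Kcnma1 site from 1113 to 1330 nt after the stop codon (x axis, nt), with the 4-nt tandem repeat shaded, sites in RAC in blue and outside it in red. Of the 16 sites of the repeat, 9 are in RAC, with counts of 3 to 26, and 7 are outside RAC, all with a count of 3.

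Among inward rectifiers, Kcnj3, Kcnj9 and Kcnj10 had 8 sites each. Kcnj3, Kcnj6 and Kcnj9 encode GIRK subunits, which G protein-coupled receptors open, and Kcnj10 encodes Kir4.1, the main potassium channel of astrocytes, though the list does not name the cells of any site. Kcnj9 held the 1 high count of this family: its sites had counts of 3, 3, 4, 3, 8, 100, 3 and 3, with 100 at 1168 nt after the stop codon, just before a run of A in the printed window. The 8 Kcnj10 sites, all in the 3' UTR and all in RAC, had counts of 7, 3, 7, 3, 3, 4, 3 and 3 and were spread from 259 to 3918 nt. Kcnj10 thus had as many sites as Kcnj9 without a high count. The Kcnj3 sites had counts of 3 to 9, and 4 of its 8 lie in the 3' UTR of a shorter transcript that is CDS in the longest one. Kcnj6 had 4 sites with counts of 3 to 5, Kcnj12 had 3 at 358 to 368 nt with counts of 3, 3 and 5, and 10 genes, among them Kcnj1, Kcnj11, Kcnj13, Kcnj14 and Kcnj15, had none.

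The tandem pore genes, which carry the background leak of potassium, had few sites with low counts. Kcnk9 (TASK3) had 5, with counts of 3, 3, 3, 6 and 3, and 3 of them lay 8479 to 8563 nt after the stop codon. Kcnk1 (TWIK1) had 3 sites within 31 nt, with counts of 12, 3 and 5. Kcnk2 (TREK1) had 2 sites, with counts of 5 and 4, both in the 5' UTR. The other 11 genes, among them Kcnk10, Kcnk12, Kcnk13, Kcnk15 and Kcnk16, had none.

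Of the HCN genes, which shape resonance and dendritic integration, Hcn2, Hcn3 and Hcn4 had no site. The HCN partner Pex5l (TRIP8b), which controls HCN trafficking, had 24 sites.

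The voltage-gated genes without a site were 16, among them Kcna10, Kcna3, Kcna4, Kcna5 and Kcna6, and the silent ones 8, among them Kcnf1, Kcng1, Kcng2, Kcng3 and Kcng4. Kcnv1 (2 sites) and Kcns2 (1 site, count of 6) were the silent subunits with any. Among accessory genes without a site were Kcnab3, Kcne1, Kcne1l, Kcne2 and Kcne3, and Kcnab1 and Kcnab2, which encode Kv1 beta subunits, had 1 site each. Genes outside the family that bind or place these channels were looked at from a list of 24. Of these, 18 had a site (75%), where 17.6% of all protein-coding genes did. The median was 9.5 sites among the 18, against 2 among protein-coding genes with a site outside the channel family. The 24 genes were not matched to others for expression or length, so the difference cannot be read as a trait of channel partners. The calmodulin genes Calm2 and Calm3, whose product is a subunit of Kv7 and small-conductance channels, had 55 and 40 sites. Ank3, which anchors Kv7 channels at the axon initial segment, had 44. The Kv1-linked Adam23 had 30 and Adam22 had 20, the scaffold Dlg4 had 20, and the Kv4 partner Dpp6 had 10. Amigo1, Vapb, Lrrc26, Lrrc38, Lrrc52 and Lrrc55 had none.

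Channel sites were mostly in 3' UTRs. Of the 285 sites, 237 were in a 3' UTR (83.2%, interval 78.3 to 87.3%), 39 in the CDS (13.7%), 5 in a 5' UTR and 4 in noncoding exons. Over all other sites of the list, 61.7% were in a 3' UTR and 26.2% in the CDS. Leaving out each gene in turn kept the 3' UTR share of channel sites between 79.9% and 85.6%, the latter without Kcnc1. With each gene weighted equally it was 75.4%. Of the sites of Scn genes 62.9% were in a 3' UTR, and of those of Cacn genes 76.3%. Of the 31 genes, 15 had sites in the 3' UTR alone. Among the 28 genes with sites on the longest coding transcript, 22 had more sites per kb in the 3' UTR than in the CDS. Kcna1 had 12.9 sites per kb of 3' UTR, Kcnh5 10.5 and Kcnip3 5.43, and Kcnc1 had 5.21 per kb of CDS.

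Most 3' UTR sites were not close to the stop codon. On the longest coding transcript, where 275 of the sites could be placed, the median position was 921 nt after the stop codon, against 232 nt for all other genes. Within 400 nt of the stop codon on either side lay 87 sites (31.6%), close to the 30.2% of all other genes. Of the 275 sites, 257 were in the last exon (93.5%, interval 89.9 to 96.1%), against 69.9% for all other genes, 77.1% for Scn and 74.6% for Cacn. Within 500 nt of the annotated 3' end lay 24 of the 275 sites, against 2919 of 24411 for all other genes, 15 of 130 for Cacn and 3 of 140 for Scn.

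These shares depend on how long the regions are, so listed RAC sites were set beside all RAC cytosines of the same transcripts, each gene weighted by its number of listed RAC sites. For the 216 RAC sites of 28 channel genes, 81.9% lay in the 3' UTR where 60.9% of the RAC cytosines did, and 16.7% lay in the CDS where 33.4% did. Within 400 nt of the stop codon the observed share was 32.9% and that of all RAC cytosines 13.3%, a ratio of 2.47 that stayed between 2.35 and 2.65 when each gene was left out in turn. The last exon held 92.6% against 75.4%. Other genes also had more listed sites than RAC cytosines in these places, with 63.8% against 46.8% in the 3' UTR, 29.7% against 19.1% within 400 nt of the stop codon and 69.3% against 53.2% in the last exon. In the 3' UTR the ratio of observed to RAC share was 1.35 for potassium and HCN genes, 1.36 for all other genes, 1.78 for Scn (55.9% against 31.3%) and 1.64 for Cacn (77.1% against 46.9%). In the last exon it was 1.23, 1.30, 1.76 and 1.51 in the same order. The potassium and HCN genes had the lowest ratio of these 4 groups in both regions, although their plain shares were the highest. Their RAC shares, 60.9% and 75.4%, were also the highest of the 4 groups. A high RAC share limits how large the ratio can be, so these ratios cannot rank the groups. Within 400 nt of the stop codon the ratio was 2.47 for potassium and HCN genes, 1.55 for all other genes, 3.57 for Scn and 2.15 for Cacn. Among the 15 channel genes with at least 5 RAC sites, 12 were above their own transcript in the 3' UTR share, 11 in the share near the stop codon and 14 in the last exon.

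A-rich sequence downstream of the sites was the other feature examined. An A-rich stretch, defined as at least 8 A in 10 nt, began within 100 nt downstream of 34.7% of the 216 RAC sites, where 10.1% of all RAC cytosines on the same transcripts had one. The ratio, 3.43, stayed between 3.17 and 3.71 when each gene was left out in turn, and 14 of the 15 genes were above their own transcript. Within the 3' UTR alone, 71 of 177 RAC sites had such a stretch (40.1%, interval 32.8 to 47.7%), against 16.2% of the RAC cytosines there. All other genes had 29.4% against 10.7%, Scn 22.5% against 8.94% and Cacn 40.0% against 14.4%, so the pattern was seen in the rest of the list as well. Of the 18 channel sites with a count of 20 or more, which lay in 8 genes, 11 had the stretch, against 95 of all 275 placed sites. Those of Kcnj9 at 100 and of Kcnd2 at 76 and 74 were among the 11. Close neighbours, such as these Kcnd2 sites, have nearly the same downstream sequence. The 11 are therefore not independent, and a link between count and stretch was not tested. Over all sites on the longest coding transcripts, the median count was 4 for the 95 with the stretch and 4 for the 180 without it. Read depth around these stretches was not analysed here.

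**Figure D4:**
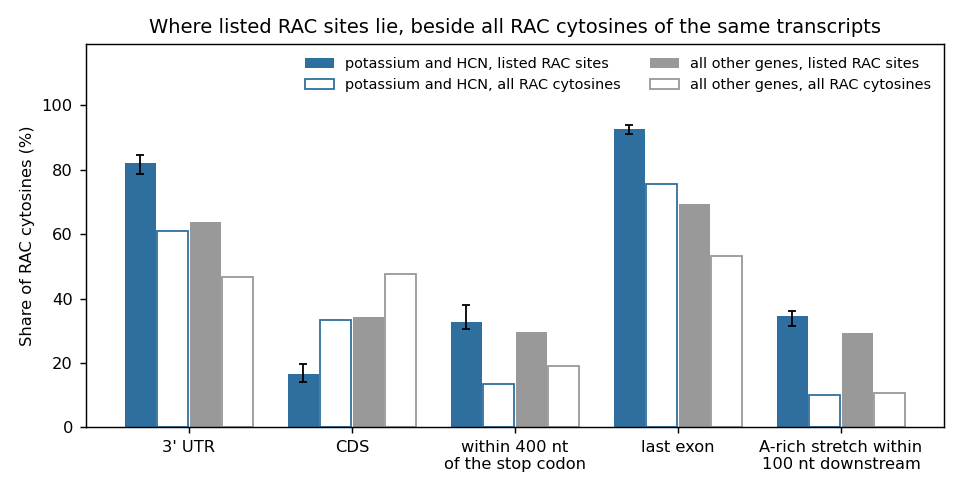
Share of RAC cytosines in % (y axis) by position (x axis). Filled bars are listed RAC sites and open bars are all RAC cytosines of the same transcripts, for potassium and HCN channel genes (blue, 216 sites) and all other genes (grey), and error bars are the range when each channel gene is left out in turn. The filled bars exceed the open ones in both groups at each position except the CDS.

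The motif around the edited base was examined next. Of 284 channel sites with a full 5-nt context, 225 were in RAC (79.2%, interval 74.0 to 83.8%) and 170 in DRACH (59.9%), against 77.7% and 55.2% for all other sites. Among RAC sites alone, 75.6% were in DRACH (interval 69.4 to 81.0%), against 71.0% for all other sites. Among RAC contexts, counted on the transcript strand, AAACA was the most frequent, with 32 sites in 14 genes where 14.9 would fall if listed sites were drawn evenly from RAC cytosines within each gene's regions. It includes the Kcnd2 sites of count 76 and 74. TGACA followed with 19 sites against 10.9, and TGACT with 15 against 8.84. Contexts beginning GGAC, which contain the motif often named for m6A, were few: 7 sites against 31.3. GGACT had 2 sites, with counts of 10 or less. No such context counts are given here for other genes, so whether these differences are particular to channel genes cannot be told.

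The 59 sites outside RAC, in 17 genes, all had a count of 3. The sources used here name no filter on sites, and RAC sites also reach down to 3, with a median of 5. Of the 59, 40 lay within 10 nt of a RAC site of the same gene (67.8%), close to the 67.7% for other genes, and 9 were directly next to one. Over all 285 channel sites the median count was 4, as in the rest of the list, and 129 sites (45.3%) were at 3. Counts of 10 or more were seen for 42 sites (14.7%, interval 10.8 to 19.4%), against 24.8% of all other sites, and the 90th percentile was 13 against 23. Among genes with a site, the median was thus 5 sites per channel gene against 2 for all other protein-coding genes, not matched for length or expression. Scn and Cacn genes had medians of 6 and 7, so this was not particular to potassium and HCN genes. A smaller share of channel sites than of all other sites had a count of 10 or more. That share was 17.8% for Cacn sites and 26.4% for Scn sites.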

How the data were processed

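Per the labels, the 4 samples are sublibraries of 1 pool of cortex cells measured by scDART-seq, and the list was taken as theirs, although the series' design text describes sorted neuronal nuclei. Reads were aligned with STAR 2.7.5 to mm10, per the submitters' processing notes, and C-to-U sites were found with Bullseye, per the series' design text. The authors deposited 1 list, without a header, of 1-base sites, each with a gene symbol and a whole number, used here as an unnormalized site count. The sources used here do not say how it was filtered.

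Sites were placed by symbol and strand on GENCODE M21 (mm10), and 28337 of 28338 exonic sites had a C. Where transcripts differed, 3' UTR took precedence over CDS, CDS over 5' UTR, and that over noncoding exons and introns. Distances used the longest coding transcript, which carries 275 of the 285 channel sites. Comparison shares were computed from all RAC cytosines, with no random draws and no p-value. Scripts (Python 3.11.15, pandas 2.3.3, Biopython 1.88) were tested on simulated data. Named genes were the 10 with the most sites (11 with a tie), the first of each subfamily, all Hcn genes, those of the 10 highest counts and up to 5 per role without a site. Kcnj6, Kcnj12, Kcnk1, Kcnk2 and other members with few sites were named after their values were seen. Some genes that this rule names are left out of the text and figures, while counts and shares over the whole family include them. Members and lists were chosen with earlier results of these data known. The A-rich, repeat and paralog comparisons were added after seeing the data.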

Additional observations from a re-analysis of the deposited data

How the results depend on the processing

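Restricting to sites at or above the list's median count of 4 left 156 channel sites, a median of 2.5 sites per gene with a site and 31 sites in the subfamily with the most. Per kb of exon of the genes with a site, Kcnip led instead, with 2.82. That value rests on Kcnip3 alone, 1 of 4 Kcnip genes, and leaves out the exons of those without a site. With genes weighted equally the 3' UTR share was 75.4%, and with a window of 200 nt the share near the stop codon was 15.6%. The DRACH share of 59.9% became 75.6% among RAC sites alone, and RAC in place of DRACH gave 79.2%. The median count was 5 over RAC sites and 9 over the highest site of each gene. Leaving out each gene in turn moved the share within 400 nt of the stop codon from 28.7% (without Kcnd2) to 37.9%. Of 25 alternatives, 15 stayed within the counting interval or within 1.5 times a count. The A-rich share was 36.2% at or above the median count and 31.8% with sites within 10 nt merged, alternatives chosen after seeing the data. No paired analysis was possible because sites carry no replicate number. Depth is unknown, so genes without a site and low counts cannot be read as absence of methylation.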
